A study of Mus musculus with 8 samples.

Results

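The mitochondrial respiratory chain and ATP synthase are encoded by a nuclear set of genes and by the small circular genome inside the mitochondrion itself. Both sets were followed in liver RNA-Seq from mice fed a normal diet (ND) or a high-fructose diet (HFrD). A gene was taken as a member when its symbol began with *mt-*, *Nduf*, *Uqcr*, *Atp5*, *Cox4*, *Cox5*, *Cox6*, *Cox7* or *Cox8*, or when it was *Sdha*, *Sdhb*, *Sdhc* or *Sdhd*. This gave 106 of the 22564 genes in the table, 93 of them nuclear and 13 mitochondrially encoded. The choice by symbol also takes in 9 assembly factors and related proteins, 8 tissue-restricted or alternative isoforms of complex IV and 1 gene named as a pseudogene, *Atp5l-ps1*.

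All animals were male mice of the inbred strain C57BL/6J, 10 to 11 weeks old when bought. They received the ND (ND mice 1, 3, 6 and 7) or the HFrD (HFrD mice 1, 2, 5 and 7) for 2 weeks, and no other agent or allele was given. The HFrD held 70% of its energy as carbohydrate, 20% as protein and 10% as fat. Each library was the liver of 1 mouse after removal of ribosomal RNA, and values are FPKM, fragments scaled to the length of the transcript and to the mapped fragments of the library.

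Electrons from food enter the chain at complex I (NADH dehydrogenase) or complex II (succinate dehydrogenase) and pass through coenzyme Q, complex III and cytochrome c to complex IV (cytochrome c oxidase), where oxygen is reduced. Complexes I, III and IV pump protons, and complex V (ATP synthase) lets them flow back to make ATP. Each pumping complex has core subunits that carry out the reaction, partly made inside the mitochondrion, and small supernumerary subunits that are all made from nuclear genes. Hepatocytes are rich in mitochondria, which in the liver also oxidise fatty acids and feed glucose and urea synthesis.

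The summed FPKM of a library was 486099 to 506258 in ND and 473888 to 489433 in HFrD mice, and genes above 0 numbered 13755 to 13973 and 14053 to 14392. Read totals were not used here, and against a depth of 1 for ND mouse 1 the estimated depth was 0.991 to 1.17 in ND and 1.13 to 1.49 in HFrD libraries. The summed level of 8 hepatocyte markers was 38375 to 47280 FPKM in ND and 44065 to 53577 FPKM in HFrD libraries, so the markers of the labelled tissue were present. Macrophage markers differed between the diets, with 7 of 9 higher and a sum of 74.0 to 117 FPKM in ND and 154 to 208 FPKM in HFrD libraries. Sinusoidal endothelial markers (2 of 8 higher, 92.6 to 119 against 120.0 to 135 FPKM) and stellate cell markers (0 of 8 higher, 102 to 135 against 142 to 148 FPKM) did not overlap either, and no gene of these 3 lists was at 0 in all libraries. The part of these cells in the results that follow was not tested. In bulk tissue, fewer cells of a type and less RNA per cell cannot be told apart.

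Of the 93 nuclear members, 88 had a mean of at least 0.5 FPKM and were tested. After HFrD, 13 were higher and 1 was lower at an adjusted p under 0.05 (limma on log2(FPKM + 1), Benjamini-Hochberg over all 11476 genes tested), and 74 did not pass. The higher members make up 14.8% of the nuclear members tested, while 5.44% of all genes tested were higher and 3.69% were lower. The nuclear members are short, with a median transcript of 908 bases. Among genes that are no members, 11.9% were higher under 600 bases and 11.2% from 600 to 1000 bases. The higher members were *Ndufa5*, *Ndufa8*, *Ndufa13*, *Ndufb7* and *Ndufb8* of complex I, *Sdhd* of complex II, *Uqcrq* and *Uqcr11* of complex III, *Cox6a1* and *Cox8a* of complex IV, and *Atp5e*, *Atp5g1* and *Atp5j2* of complex V. Their rises were 0.34 to 0.70 on the log2 scale. All 4 HFrD mice were above all 4 ND mice for 21 of the 88, against 9.60% of all genes tested, and below them for 1, against 7.01%. The median log2 fold change over the 88 was 0.12 and over all genes tested 0.01, and 69 of the 88 had a positive sign. Across all genes, 624 were higher and 423 lower. This split became 552 and 614 with library medians set equal, and 513 and 582 with library sums over genes other than *mt-* and *Mup* set equal. In both settings 11 nuclear members stayed higher, and *Atp5e* and *Sdhd* did not pass.

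**Figure D1:**
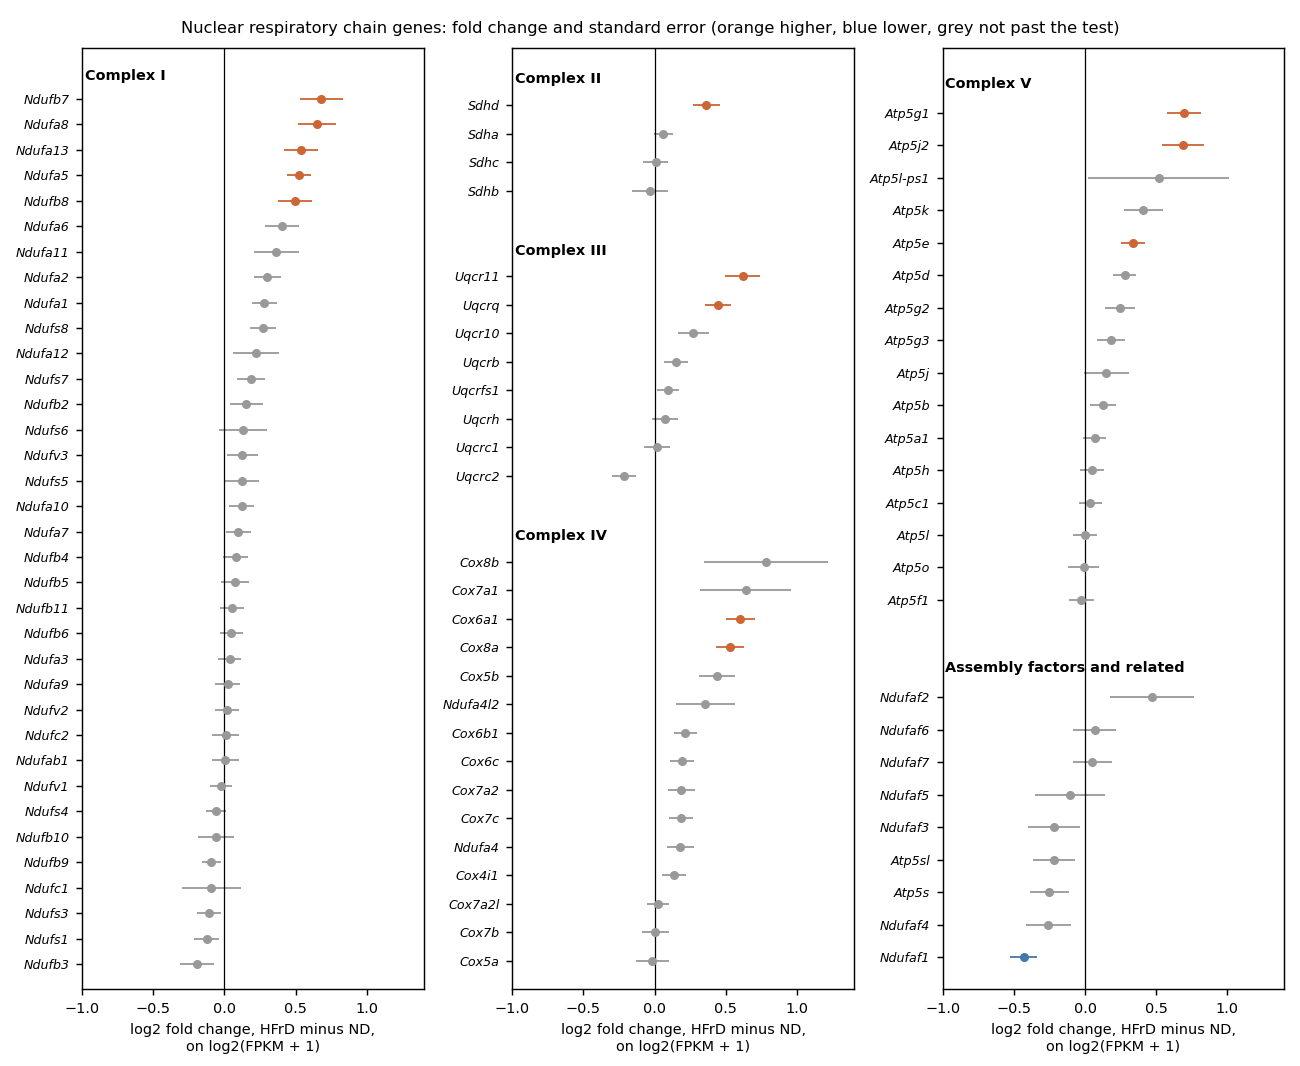
Log2 fold change (HFrD minus ND on log2(FPKM + 1), points) with its standard error (bars) for the nuclear members tested, grouped by complex, with 1 grey member not shown. The 13 members past the test upwards are orange, *Ndufaf1*, the 1 past it downwards, is blue, and those that did not pass are grey.

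As over all genes tested, the count of nuclear members higher depended on single libraries. It was 6 without ND mouse 1, 6 without ND mouse 3, 9 without ND mouse 6, 13 without ND mouse 7, 16 without HFrD mouse 1, 9 without HFrD mouse 2, 9 without HFrD mouse 5 and 7 without HFrD mouse 7. Over all genes tested, higher calls numbered 624 in the main fit. In the fits above, in the same order, they numbered 340, 368, 395, 581, 661, 387, 370 and 367. *Ndufa5*, *Ndufa8*, *Uqcr11*, *Cox6a1*, *Cox8a* and *Atp5g1* were higher in each of these 8 fits. *Uqcrq* passed in 6 of the 8, *Ndufb7* in 5, *Atp5j2* in 4, *Atp5e*, *Ndufa13* and *Ndufb8* in 2 each, and *Sdhd* in 1. Over the 13 higher members, the median deviation from the ND mean was 0.43 in HFrD mouse 1, 0.58 in mouse 2, 0.57 in mouse 5 and 0.68 in mouse 7, and -0.15 to 0.08 in the ND mice. HFrD mouse 1 had the lowest HFrD value for 10 of the 13.

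**Figure D2:**
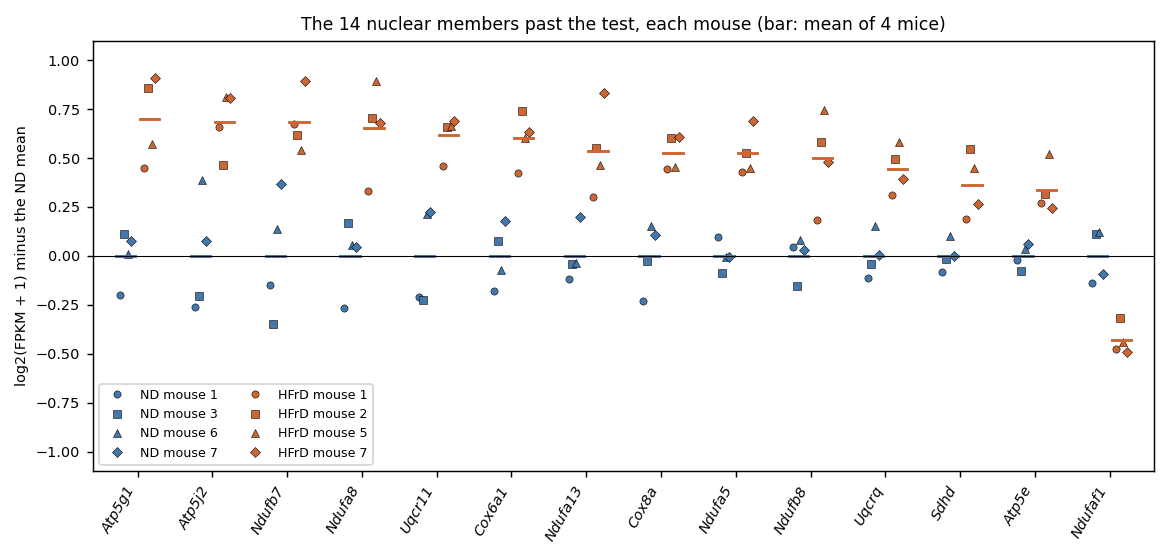
Log2(FPKM + 1) of each mouse minus the ND mean for the 14 nuclear members past the test, with bars at the mean of 4 mice. For each of the 14 the HFrD mice (orange) and the ND mice (blue) do not overlap, and HFrD mouse 1 is the lowest HFrD mouse for 10 of the 13 that rose.

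Complex I is the largest of the complexes, and 36 of its nuclear subunit genes were tested, of which 5 were higher, 0 lower and 28 positive in sign. Beside this count and those of the other complexes and assembly factors below stand 5.44% higher and 3.69% lower over all genes tested. No complex was tested against these shares. The 5 that rose all encode supernumerary subunits. None of the 7 nuclear core subunits, which carry the flavin and the iron-sulfur clusters, passed the test, and their median was 0.02 against 0.12 for the 29 supernumerary subunits.

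*Ndufa5* (ENSMUSG00000023089, chr6:24518666-24528013) encodes a subunit of the arm that reaches into the matrix. It was at 45.4, 39.7, 42.1 and 42.2 FPKM in the ND mice and at 57.3, 61.4, 58.2 and 68.9 FPKM in the HFrD mice, in the order of the mouse numbers. The groups were well apart, and the log2 fold change was 0.52 ± 0.09 (SE, n = 4 per group, limma adjusted p = 0.00656). *Ndufa8* (ENSMUSG00000026895, chr2:36036326-36049406) encodes a disulfide-bonded subunit on the side of the intermembrane space. Its values were 41.9, 57.0, 52.7 and 52.3 FPKM in ND and 64.1, 83.3, 94.9 and 81.6 FPKM in HFrD mice. The lowest HFrD mouse was again mouse 1, and the log2 fold change was 0.65 ± 0.13 (adjusted p = 0.0161).

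*Ndufb7* (ENSMUSG00000033938, chr8:83566671-83571626), another subunit facing the intermembrane space, was at 19.5, 16.9, 24.0 and 28.3 FPKM in ND and 35.3, 34.0, 32.1 and 41.4 FPKM in HFrD mice. All HFrD mice were above all ND mice, by 0.68 ± 0.15 (adjusted p = 0.0222). *Ndufa13* (ENSMUSG00000036199, chr8:69894180-69902558), a membrane arm subunit also known as GRIM-19, a cell death regulator, was at 20.95, 22.1, 22.2 and 26.3 FPKM in ND and 28.4, 33.9, 31.9 and 41.3 FPKM in HFrD mice. It rose by 0.54 ± 0.12 (adjusted p = 0.0236), but the adjusted p reached 0.0699 without ND mouse 1. Its locus entry in the table is shared by 3 genes, and 24.0% of its 100-base windows occur letter for letter in transcripts of *Tssk6*, so its value is uncertain.

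*Ndufb8* (ENSMUSG00000025204, chr19:44548572-44555440), in the far part of the membrane arm, was at 75.6, 65.6, 77.4 and 74.8 FPKM in ND and 83.3, 110.1, 123 and 103 FPKM in HFrD mice. The gap between the groups was narrow because of HFrD mouse 1. The log2 fold change was 0.50 ± 0.12 (adjusted p = 0.0291, and 0.0840 when ND mouse 3 was left out), and its locus entry is also shared by 3 genes. *Ndufa3* had the highest mean FPKM of the nuclear members of complex I, with 265 to 305 FPKM in ND and 268 to 300.1 FPKM in HFrD mice, so the groups overlapped fully (0.04 ± 0.08, adjusted p = 0.806). At the other end, *Ndufb3*, a small membrane arm subunit, was at 31.9, 39.9, 32.8 and 34.9 against 27.6, 25.4, 35.2 and 34.1 FPKM, a log2 difference of -0.19 ± 0.12 that did not pass (adjusted p = 0.362). *Ndufa1*, *Ndufa2*, *Ndufa6* and *Ndufs8* had all HFrD values above all ND values without passing, with log2 fold changes of 0.27 to 0.41 and adjusted p of 0.0629 to 0.101.

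Complex II is the citric acid cycle enzyme that feeds electrons from succinate to coenzyme Q, and all of its 4 subunits are nuclear. *Sdhd* (ENSMUSG00000000171, chr9:50596357-50603812), a membrane anchor of the complex, was at 104, 109, 118 and 110.2 FPKM in ND and 126, 162, 151 and 133 FPKM in HFrD mice. It rose by 0.36 ± 0.09 (adjusted p = 0.0415), the weakest call of the 13, which held in 1 of the 8 fits without 1 library. *Sdha*, the flavoprotein, was nearly level at 138, 144, 141 and 141 against 151, 149.9, 148 and 139.6 FPKM (0.06 ± 0.07, adjusted p = 0.617). *Sdhb*, the iron-sulfur subunit, spread widely in the HFrD group, at 123, 164, 154 and 109.8 against 132 to 151 FPKM in ND mice (-0.03 ± 0.13, adjusted p = 0.904). *Sdhc*, the partner anchor, was at 39.7 to 49.7 FPKM in HFrD and 41.9 to 45.7 FPKM in ND mice (0.01 ± 0.09, adjusted p = 0.966).

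In complex III, 2 of 8 nuclear members were higher, both among its 5 supernumerary subunits. These have a median transcript of 535 bases, against 1653 bases for the 3 core subunits. *Uqcr11* (ENSMUSG00000020163, chr10:80402997-80406830) was at 136, 134, 182 and 184 FPKM in ND and 217, 249, 249.7 and 254 FPKM in HFrD mice. The ND mice fell into a lower and a higher pair, both below every HFrD mouse, and the log2 fold change was 0.62 ± 0.12 (adjusted p = 0.0154). *Uqcrq* (ENSMUSG00000044894, chr11:53427922-53430831), a subunit near the coenzyme Q site, was the most abundant nuclear member of the complex. It was at 193, 203, 232 and 209 FPKM in ND and 259, 295, 313 and 274 FPKM in HFrD mice, a rise of 0.44 ± 0.09 (adjusted p = 0.0164). *Uqcrc2*, a large core protein, lay in the other direction at 127, 131, 125 and 113 against 106, 112, 114 and 95.2 FPKM, which did not pass (-0.22 ± 0.09, adjusted p = 0.142). The Rieske iron-sulfur protein *Uqcrfs1* did not pass either (0.09 ± 0.08, adjusted p = 0.496).

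In complex IV, 15 of 20 nuclear members could be tested and 2 were higher, with 14 of 15 positive in sign. *Cox6a1* (ENSMUSG00000041697, chr5:115345642-115348981), the non-muscle form of subunit VIa, was at 114, 136, 123 and 147 FPKM in ND and 174, 217, 197 and 202 FPKM in HFrD mice. The groups were clearly apart (log2 fold change 0.60 ± 0.10, adjusted p = 0.00782), and the call held in all 8 fits without 1 library. *Cox8a* (ENSMUSG00000035885, chr19:7215153-7217616), the form of subunit VIII in liver, was at 155, 179, 202 and 196 FPKM in ND and 249, 277, 251 and 278 FPKM in HFrD mice, a rise of 0.53 ± 0.10 (adjusted p = 0.0116). *Cox6c*, the most abundant nuclear member of the complex, had HFrD values of 555 to 589 FPKM above ND values of 447 to 538 FPKM but did not pass (0.19 ± 0.08, adjusted p = 0.187). *Cox5b* and *Cox6b1* also did not overlap between the diets without passing (0.44 ± 0.13, adjusted p = 0.0586, and 0.22 ± 0.08, adjusted p = 0.125). *Cox5a* had the smallest log2 fold change, -0.02 ± 0.12, at 136, 185, 181 and 154 FPKM in HFrD and 146, 167, 188 and 161 FPKM in ND mice.

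Several subunits of complex IV have a muscle, lung, testis or low-oxygen form, and in these livers the common form dominated each pair. *Cox6a2*, *Cox7b2* and *Cox8c* were listed at 0 in all 8 libraries, *Cox4i2* was above 0 in ND mouse 7 (0.215 FPKM) and HFrD mouse 5 (0.418 FPKM), and *Cox6b2* in HFrD mouse 1 (0.624 FPKM). These 5 members lay below the filter. *Cox4i1*, the common partner of *Cox4i2*, was at 417 to 478 FPKM in ND and 454 to 523 FPKM in HFrD mice (0.13 ± 0.08, adjusted p = 0.353). *Cox7a1*, the muscle form of subunit VIIa, was at 1.67, 0.869, 1.501 and 0.707 against 2.18, 3.97, 0.684 and 3.71 FPKM, with the HFrD mice on both sides of the ND range (0.64 ± 0.32, adjusted p = 0.246). Its liver partner *Cox7a2* was 46.3 to 296 times as abundant in FPKM in the same mouse and did not pass (0.19 ± 0.09, adjusted p = 0.241).

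*Cox8b*, the muscle form of subunit VIII, was listed at 0 in all ND mice and in HFrD mice 5 and 7, and at 0.735 and 4.02 FPKM in HFrD mice 1 and 2. Its fitted log2 fold change of 0.78 ± 0.44 was the largest of the complex and did not pass (adjusted p = 0.298). Of 9 muscle markers, 6 were at 0 in every library and their sum was at most 0.175 FPKM in ND and 0.0886 FPKM in HFrD libraries. *Ndufa4l2*, a form of *Ndufa4* induced by low oxygen, was at 0.353 to 0.740 FPKM in ND and 0.289 to 1.53 FPKM in HFrD mice (0.36 ± 0.21, adjusted p = 0.313), and *Ndufa4* itself at 271 to 337 and 299 to 359 FPKM (0.18 ± 0.10, adjusted p = 0.272). *Cox7b*, the partner of *Cox7b2*, and *Cox7a2l*, of the subunit VIIa set, differed by 0.01 ± 0.09 and 0.02 ± 0.08. The sign of both turned negative with library medians set equal.

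In complex V, 3 of 16 members were higher. *Atp5e* (ENSMUSG00000016252, chr2:174461072-174464105), the small epsilon subunit of the rotating stalk, was at 139.7, 134, 145 and 147 FPKM in ND and 171, 176, 204 and 168 FPKM in HFrD mice. It rose by 0.34 ± 0.08 (adjusted p = 0.0339, and 0.0952 when ND mouse 3 was left out). *Atp5j2* (ENSMUSG00000038690, chr5:145183698-145192062), subunit f of the membrane part, was at 33.8, 35.1, 53.6 and 43.0 FPKM in ND and 64.8, 56.4, 72.1 and 72.0 FPKM in HFrD mice. ND mouse 6 came close to HFrD mouse 2, and the log2 fold change was 0.69 ± 0.15 (adjusted p = 0.0196, and 0.0596 when ND mouse 3 was left out). *Atp5b*, the catalytic beta subunit, had the highest mean FPKM of all nuclear members at 518 to 583 FPKM in ND and 519 to 652 FPKM in HFrD mice (0.13 ± 0.09, adjusted p = 0.431). *Atp5f1*, a peripheral stalk subunit, had the smallest log2 fold change of its nuclear members (-0.03 ± 0.09, adjusted p = 0.889). *Atp5d* did not overlap between the diets, at 120 to 129 FPKM in ND and 138 to 166 FPKM in HFrD mice, without passing (0.28 ± 0.08, adjusted p = 0.0583). Its locus entry is shared by 46 genes, so its value is uncertain.

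The ring of c subunits that turns as protons pass is encoded by 3 genes whose mature proteins are the same. *Atp5g1* (ENSMUSG00000006057, chr11:96068852-96075670) was at 64.0, 79.7, 74.0 and 77.6 FPKM in ND and 101, 134, 109.8 and 139 FPKM in HFrD mice. This was the largest rise of any nuclear member past the test, 0.70 ± 0.12 (adjusted p = 0.00823), and it held in all 8 fits without 1 library. *Atp5g3*, the most abundant of the 3, was at 271, 272, 293 and 286 against 285, 351, 359 and 284 FPKM, with HFrD mice 1 and 7 inside the ND range (0.18 ± 0.10, adjusted p = 0.282). *Atp5g2* was at 23.1, 24.4, 28.6 and 22.0 against 30.6, 30.6, 25.1 and 31.0 FPKM (0.25 ± 0.11, adjusted p = 0.177), and 86.4% of its 100-base windows occur in transcripts of other genes, which makes its level uncertain. The fold changes of the 3 genes were not tested against each other.

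The 9 assembly factors and related proteins lay the other way, with 0 higher, 1 lower, 6 of 9 negative in sign and a median of -0.22. *Ndufaf1* (ENSMUSG00000027305, chr2:119655446-119662827), which helps to build the membrane arm of complex I, was at 23.0, 27.5, 27.7 and 23.8 FPKM in ND and 18.03, 20.2, 18.4 and 17.8 FPKM in HFrD mice. It fell by 0.43 on the log2 scale (SE 0.09, adjusted p = 0.0197) with no overlap between the diets. The call was lost in 4 of the 8 fits without 1 library (ND mice 3 and 6, HFrD mice 5 and 7), with an adjusted p of up to 0.0604. *Ndufaf2* had the largest value of the list, 0.47 ± 0.29 (adjusted p = 0.348), but its ND mice spanned 1.70 to 6.10 FPKM and its HFrD mice 4.13 to 7.23 FPKM.

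Summed over the nuclear subunits of a complex, without the mitochondrially encoded ones, FPKM did not overlap between the diets for complex III (1188 to 1352 in ND and 1363 to 1562 in HFrD mice) and complex IV (2764 to 3065 and 3183 to 3448). The same held for these sums as a share of all FPKM of the library (0.240 to 0.268% and 0.282 to 0.328% for complex III, 0.563 to 0.607% and 0.657 to 0.728% for complex IV). Complex II (416 to 448 and 422 to 519 FPKM) and complex V (2625 to 2723 and 2686 to 3126 FPKM) overlapped on both scales. For the other sums the overlap depended on the scale. Nuclear complex I overlapped in FPKM (2441 to 2646 and 2559.8 to 2884) but not as a share (0.490 to 0.526% and 0.529 to 0.605%), and all 93 nuclear members together likewise (9535 to 10315 and 10311 to 11514 FPKM, 1.93 to 2.04% and 2.13 to 2.42%). The assembly factors did not overlap in FPKM (79.6 to 94.3 in ND and 71.5 to 77.4 in HFrD mice) but overlapped as a share (0.0161 to 0.0187% and 0.0148 to 0.0162%).

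The choice by symbol did not use the sequence of the genes. The nuclear respiratory factors NRF-1 and GABPA (NRF-2) are classic activators of respiratory genes. Their core letters were searched on both strands in RefSeq promoter windows (GRCm38.p6) from 250 bases before to 50 bases after the annotated start, which were found for 71 of the 88 nuclear members tested and 12 of the 13 higher ones. A gene was counted when any of its windows held the letters. The NRF-1 letters (GCGCA, any base, then GCGC) stood in 19 of the 71 genes (26.8%). They stood in 4 of 12 higher members (33.3%), in 15 of 59 other members (25.4%) and in 11.9% of all genes tested with a window. The GABPA letters CCGGAAGT stood in 5 of the 71 (7.04%) and in 9.26% of all genes tested, and the letters AAGATGGCG of YY1, another activator of such genes, in 7 of the 71 (9.86%) and in 3.81%. By call, the GABPA letters stood in 2 of 12 higher members (16.7%) and 3 of 59 of the others (5.08%). The YY1 letters stood in 1 of 12 (8.33%) and 6 of 59 (10.2%). With 12 higher members that have a window, these shares rest on few genes and were not tested. The 250 bases before the start are printed here for the 4 higher members with NRF-1 letters and for *Uqcr11*, which has GABPA letters, because they show where these motifs lie in members that rose together. *Cox8a*, the other higher member with GABPA letters, holds 2 matches, at and after its start, and is not printed. They are written 5′ to 3′ on the gene's strand with the motif in capitals.
Cox6a1 (chr5:115348959-115349208, minus strand): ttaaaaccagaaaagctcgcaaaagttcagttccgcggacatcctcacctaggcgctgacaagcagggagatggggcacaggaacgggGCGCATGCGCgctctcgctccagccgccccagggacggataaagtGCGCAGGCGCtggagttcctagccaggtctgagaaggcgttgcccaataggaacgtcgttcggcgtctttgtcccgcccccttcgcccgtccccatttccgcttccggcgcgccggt
Ndufa5 (chr6:24527691-24527940, minus strand): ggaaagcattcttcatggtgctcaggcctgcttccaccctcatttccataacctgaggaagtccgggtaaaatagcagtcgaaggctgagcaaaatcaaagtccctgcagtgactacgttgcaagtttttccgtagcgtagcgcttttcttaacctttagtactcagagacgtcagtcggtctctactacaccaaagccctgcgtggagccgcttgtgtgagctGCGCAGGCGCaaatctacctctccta
Ndufa8 (chr2:36049339-36049588, minus strand): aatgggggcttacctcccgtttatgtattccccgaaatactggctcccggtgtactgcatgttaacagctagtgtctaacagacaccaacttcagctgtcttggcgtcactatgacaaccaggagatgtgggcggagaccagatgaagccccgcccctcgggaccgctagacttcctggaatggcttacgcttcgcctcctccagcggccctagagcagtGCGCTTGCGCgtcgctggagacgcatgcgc
Sdhd (chr9:50603850-50604099, minus strand): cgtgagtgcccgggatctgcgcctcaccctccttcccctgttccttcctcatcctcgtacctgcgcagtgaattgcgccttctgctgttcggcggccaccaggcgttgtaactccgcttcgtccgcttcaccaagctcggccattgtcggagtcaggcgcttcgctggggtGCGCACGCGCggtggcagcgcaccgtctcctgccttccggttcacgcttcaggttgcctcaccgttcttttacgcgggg
Uqcr11 (chr10:80406822-80407071, minus strand): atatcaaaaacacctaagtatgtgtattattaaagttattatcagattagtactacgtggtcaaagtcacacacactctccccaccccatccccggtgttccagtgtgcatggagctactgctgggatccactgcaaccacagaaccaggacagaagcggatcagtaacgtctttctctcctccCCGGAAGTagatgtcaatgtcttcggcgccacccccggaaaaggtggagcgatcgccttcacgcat
*Cox6a1* holds a pair of NRF-1 matches, which begin 162 and 117 bases before the start, and the first of them, GCGCATGCGC, reads the same on both strands. The matches begin 26 bases before the start in *Ndufa5*, 30 in *Ndufa8* (on the opposite strand) and 79 in *Sdhd*, and the GABPA match of *Uqcr11* begins 66 bases before its start. A match of letters is a description and not a measured binding site.

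Short and GC-rich transcripts had higher log2 fold changes across the whole table, and the nuclear members are short, with a median of 908 bases against 2918 bases for all genes tested. The median log2 fold change of genes that are no members was 0.27 for transcripts under 600 bases (n = 135), 0.13 for 600 to 1000 bases, 0.06 for 1000 to 2000 bases and -0.01 above. For nuclear members it was 0.29 under 600 bases, where all 20 were positive and 4 were higher, 0.18 for 600 to 1000 bases (28 members, 5 higher), 0.02 for 1000 to 2000 bases (30 members, 3 higher and 1 lower) and 0.06 above (9 members, 1 higher). In these length classes 11.9%, 11.2%, 6.39% and 4.61% of non-members were higher, against 20%, 17.9%, 10% and 11.1% of nuclear members. By GC content, non-members had medians of -0.09 under 45%, -0.03 from 45 to 50%, 0.05 from 50 to 55% and 0.12 above. Nuclear members had -0.06, 0.05, 0.18 and 0.25 in the same GC classes. Across the 87 nuclear members with a length, the log2 fold change correlated with log2 length at Pearson r = -0.37 (Spearman rho = -0.46) and with GC content at r = 0.43 (rho = 0.40). These are correlations across genes measured in the same 8 libraries, and genes are not independent replicates.

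**Figure D3:**
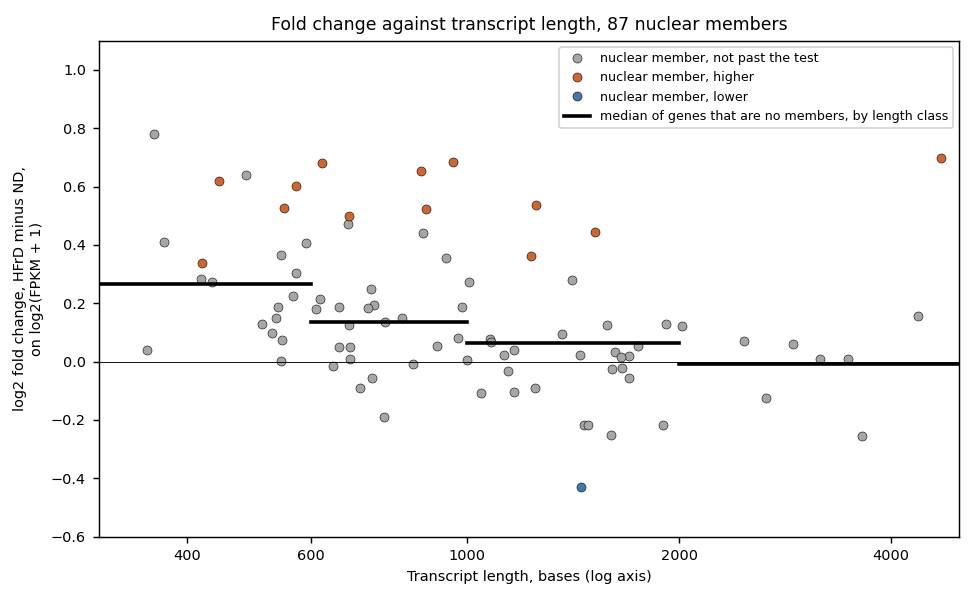
Log2 fold change (HFrD minus ND) against transcript length on a log axis for 87 nuclear members, with the median of genes that are no members in each of 4 length classes as black lines. The lines step down from 0.27 under 600 bases to -0.01 above 2000 bases. *Atp5g1*, at the right edge, rose and is placed at 4715 bases, the length of the annotated transcript chosen for it.

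When each library was adjusted for transcript length by a smooth curve, a setting chosen after seeing the data, 8 of the 13 members were still higher. *Atp5g1* (0.72, adjusted p = 0.0102), *Atp5j2* (0.57), *Ndufa8* (0.52), *Ndufa13* (0.46), *Cox6a1* (0.39), *Ndufa5* (0.39), *Uqcrq* (0.39) and *Cox8a* (0.32) passed, and *Atp5e*, *Ndufb7*, *Ndufb8*, *Sdhd* and *Uqcr11* did not. The result for *Atp5g1* depends on the 4715 bases of its chosen transcript, and other lengths were not tried. The median of the nuclear members moved from 0.12 to 0.00. *Ndufaf1* stayed lower and *Ndufb9* became lower. The same adjustment for GC content also left 8 of the 13, without *Atp5e*, *Ndufa13*, *Ndufb7*, *Ndufb8* and *Sdhd*, and gave a median of 0.08. Under the main fit, the 56 supernumerary and other small subunits had a median transcript length of 713.5 bases, 11 higher members and a median of 0.15, whereas the 19 nuclear core and F1 subunits had 1623 bases, 2 higher members and 0.04. This split was made after the values were seen, and the part of length and GC content in it cannot be told apart from that of the subunit's role.

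None of the 13 mitochondrially encoded genes passed the test in either direction. Before adjustment the limma p of 5 of them was below 0.05, against 2925 of all 11476 genes tested. These were *mt-Nd1*, *mt-Nd3*, *mt-Co2*, *mt-Co3* and, in the lower direction, *mt-Atp8*, and all but *mt-Nd1* have levels described below as uncertain or not usable. All HFrD values were above all ND values for 3 of the 13, against 9.60% of all genes tested. These were *mt-Cytb* and, with uncertain levels, *mt-Nd3* and *mt-Co2*. Of the 13, 10 were positive in sign, with a median of 0.25. The median was 0.12 without HFrD mouse 7, 0.11 after the adjustment for transcript length and 0.38 after that for GC content. These genes lie on a single circular molecule and are transcribed as long joined precursors that are cut into single RNAs. In the table they fall into 6 locus entries. The entry chrM:7766-11544 covers *mt-Atp8*, *mt-Atp6*, *mt-Co3*, *mt-Nd3*, *mt-Nd4l* and *mt-Nd4*, and chrM:11613-15288 covers *mt-Nd5*, *mt-Nd6* and *mt-Cytb*, so that the split of reads among 9 of the 13 genes depended on the quantification.

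*mt-Co1* (chrM:5328-6872), the catalytic subunit of complex IV, was by far the most abundant member. It was at 13739, 12691, 13078 and 13162 FPKM in ND and 13150.5, 14505, 15411 and 14561 FPKM in HFrD mice, where HFrD mouse 1 lay inside the ND range (0.13 ± 0.11, adjusted p = 0.519). It made up 56.1 to 59.7% of the mitochondrially encoded FPKM in ND and 49.6 to 60.1% in HFrD mice. *mt-Co2* (chrM:7013-7696), the subunit that takes electrons from cytochrome c, was at 45.7, 46.9, 47.6 and 39.8 FPKM in ND and 54.7, 52.5, 57.9 and 79.1 FPKM in HFrD mice. These groups did not overlap, but the test was not passed (0.42 ± 0.13, adjusted p = 0.0713, exact permutation p = 0.0286, the smallest that 4 against 4 mice allow). *mt-Co1* was thus 184 to 331 times as high in FPKM as *mt-Co2*, its partner in the same complex.

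Apart from *mt-Atp8*, low listed levels went with identical copies in the nuclear genome. The GENCODE M21 annotation has 7 pseudogenes in a row at chr1:24611535-24616197 that repeat this stretch of mitochondrial DNA, and 3 more at chr2:22587291-22590533. Of the 100-base windows of *mt-Co2*, *mt-Co3*, *mt-Atp6*, *mt-Nd3* and *mt-Nd4l*, 97.6 to 99.9% occur letter for letter in transcripts of such pseudogenes, and these 5 genes were at 0.338 to 150.5 FPKM in all libraries. For the other genes apart from *mt-Atp8* the share was 0 to 60.8%, and they were at 677 to 15411 FPKM. *mt-Atp8* went the other way, with a share of 0% and essentially 0 FPKM in all libraries but ND mice 1 and 3. Of the pseudogenes, *Gm10222*, the copy of *mt-Nd4l*, has its own value in the table. It was at 64.7, 45.1, 36.6 and 30.3 FPKM in ND and 48.9, 45.2, 40.5 and 89.8 FPKM in HFrD mice, beside 53.7, 37.9, 41.6 and 25.7 and then 57.2, 37.7, 37.1 and 61.9 FPKM for *mt-Nd4l*. Both were highest in HFrD mouse 7 and lowest in ND mouse 7, and *mt-Nd4l* did not pass the test (0.29 ± 0.23, adjusted p = 0.470). How reads that fit both places were assigned is not given in the sources used here, and its part in the low levels was not tested, so the levels of these 5 genes are uncertain.

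**Figure D4:**
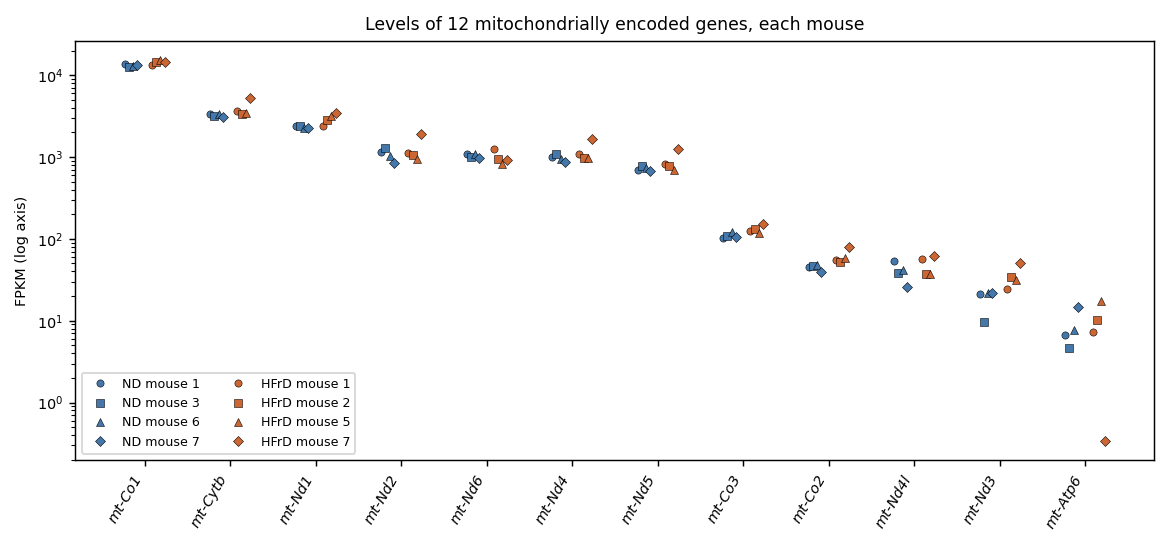
FPKM on a log axis of 12 mitochondrially encoded genes in each mouse, ordered by their ND mean (blue ND, orange HFrD). *mt-Co1* lies between 12691 and 15411 FPKM, and the 5 genes with near-complete nuclear copies lie at the right, from 0.338 to 150.5 FPKM. *mt-Atp8* is left out because most of its values are essentially 0.

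*mt-Co3*, the last core subunit of complex IV, was at 103, 108, 121 and 105 FPKM in ND and 123, 131, 119 and 151 FPKM in HFrD mice (0.26 ± 0.09, adjusted p = 0.112). *mt-Nd3*, a small core subunit of complex I, was at 21.3, 9.65, 21.7 and 21.9 against 24.1, 34.6, 31.0 and 51.4 FPKM. The HFrD mice were all above the ND mice, and the log2 difference of 0.90 ± 0.28 was the largest of the 13 genes and did not pass (adjusted p = 0.0713). *mt-Atp6*, the proton channel subunit of complex V, was scattered at 6.71, 4.61, 7.78 and 14.7 against 7.27, 10.3, 17.4 and 0.338 FPKM (-0.34 ± 0.69, adjusted p = 0.797). *mt-Atp8*, which overlaps *mt-Atp6* on the genome, was listed at 20.8 and 17.1 FPKM in ND mice 1 and 3 and at 5.56e-05 FPKM or less in the other 6 libraries, down to 7.37e-90 FPKM. Such values are not usable as levels, and its log2 difference (-2.16 ± 0.97, adjusted p = 0.196) rests on ND mice 1 and 3 alone.

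Of the 4 remaining large genes of complex I, *mt-Nd1*, a membrane subunit next to the coenzyme Q site, was at 2424, 2403, 2278 and 2264 FPKM in ND and 2394, 2873, 3129.9 and 3456 FPKM in HFrD mice. HFrD mouse 1 lay inside the ND range and the others above it (0.33 ± 0.12, adjusted p = 0.120). The proton-pumping subunits *mt-Nd2*, *mt-Nd4* and *mt-Nd5* were alike in that HFrD mouse 7 stood alone. *mt-Nd2* was at 1158, 1272, 1032 and 851 against 1130.3, 1053, 946 and 1930.4 FPKM (0.19 ± 0.21, adjusted p = 0.630). *mt-Nd4* was at 1000.5, 1096, 958 and 866 against 1094, 969, 968 and 1682 FPKM (0.23 ± 0.17, adjusted p = 0.440). *mt-Nd5* was at 692, 781, 735 and 677 against 825, 766, 701 and 1264 FPKM (0.26 ± 0.17, adjusted p = 0.354). Without HFrD mouse 7 the log2 difference of *mt-Nd2* was -0.04. *mt-Cytb*, the core of complex III, was at 3312, 3159.6, 3364 and 3054 against 3623, 3376, 3414 and 5213 FPKM. Its groups did not overlap, though ND mouse 6 and HFrD mouse 2 almost met (0.25 ± 0.15, adjusted p = 0.307).

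*mt-Nd6* is the only one of the 13 genes read from the other strand. It was at 1094, 1013, 1075 and 973 FPKM in ND and 1258, 955, 811 and 931 FPKM in HFrD mice. The log2 difference did not pass (-0.09 ± 0.13, adjusted p = 0.713). HFrD mouse 1 was above every ND mouse, and HFrD mice 2, 5 and 7 were below every ND mouse. HFrD mouse 7 was thus not high here. The ratio of *mt-Nd5* to *mt-Nd6*, which meet end to end on opposite strands and share a locus entry, was 0.633 to 0.771 in ND mice, 0.656, 0.803 and 0.864 in HFrD mice 1, 2 and 5, and 1.36 in HFrD mouse 7. The ratio of *mt-Cytb* to *mt-Nd6* was 3.03 to 3.14 in ND mice and 2.88, 3.54, 4.21 and 5.60 in HFrD mice. The strand setting of the quantification is not given in the sources used here, so reads from the overlapping ends of opposite genes cannot be told apart.

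HFrD mouse 7 was the highest of the 8 mice for 9 of the 13 mitochondrially encoded genes. The median deviation of these genes from the ND mean was 0.68 in this mouse and 0.17, 0.09 and 0.08 in HFrD mice 1, 2 and 5. For the 88 nuclear members the order of the mice was another, with median deviations of 0.02, 0.17, 0.16 and 0.09 in HFrD mice 1, 2, 5 and 7. The summed FPKM of all 13 genes did not overlap between the diets, at 22054 to 23671 in ND and 23742 to 29380 in HFrD mice. As a share of all FPKM it did not overlap either (4.47 to 4.78% and 4.90 to 6.00%). The summed mitochondrially encoded FPKM without *mt-Co1* was 8892 to 9949 in ND mice, 10591, 10258 and 10233 in HFrD mice 1, 2 and 5, and 14819.6 in HFrD mouse 7. This sum did not overlap between the diets either. Leaving out HFrD mouse 7 gave no call among the 13 genes, and leaving out HFrD mouse 1 made *mt-Nd1* and *mt-Nd3* pass.

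**Figure D5:**
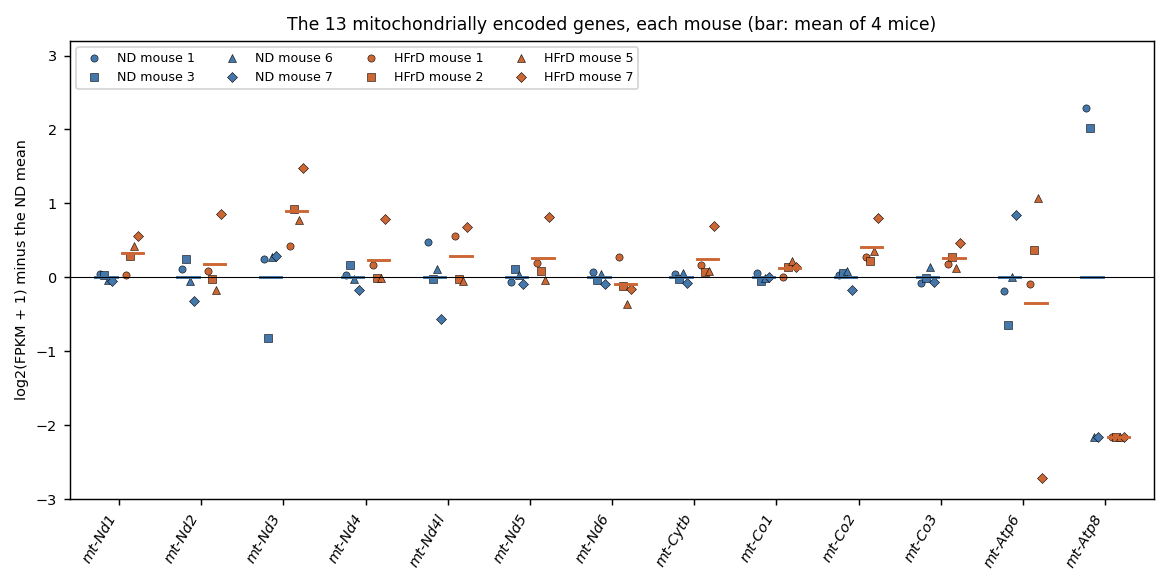
Log2(FPKM + 1) of each mouse minus the ND mean for the 13 mitochondrially encoded genes, with bars at the mean of 4 mice. HFrD mouse 7 (orange diamonds) is the highest of the 8 mice for 9 of the 13 genes and is not high for *mt-Nd6*, while *mt-Atp8* is near 0 FPKM in all libraries but ND mice 1 and 3.

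Genes that serve the chain without carrying its prefixes were counted in lists drawn up by function. Across all genes tested 5.44% were higher and 3.69% were lower, and no list was tested against these shares. Of 12 tested electron transfer genes 1 was higher, *Gpd2*, the mitochondrial glycerol-3-phosphate dehydrogenase that passes cytosolic reducing power to coenzyme Q. It was at 6.45, 5.68, 7.26 and 5.37 FPKM in ND and 6.96, 12.4, 15.1 and 10.7 FPKM in HFrD mice, where HFrD mouse 1 overlapped the ND mice (0.74, adjusted p = 0.0441). *Cyc1*, the cytochrome of complex III, and *Cycs*, cytochrome c, did not pass (0.28, adjusted p = 0.117, and -0.04, adjusted p = 0.851). Of 5 tested carriers of nucleotides, phosphate and protons 1 was higher, *Slc25a4*, the muscle and heart form of the ADP/ATP exchanger, at 0.924 to 1.69 FPKM in ND and 1.64 to 3.01 FPKM in HFrD mice (0.62, adjusted p = 0.0417).

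Of 38 assembly factors without the prefixes, 0 were higher and 1 was lower, *Taco1*, a translational activator of *mt-Co1*, at 12.4 to 14.9 FPKM in ND and 8.66 to 11.0 FPKM in HFrD mice (-0.46, adjusted p = 0.02001). Of 16 genes for mitochondrial DNA copying and transcription, 0 were higher and 1 was lower, *Tefm*, the elongation factor of mitochondrial transcription, at 8.62, 11.4, 11.5 and 11.6 against 6.91, 7.79, 4.53 and 6.75 FPKM (-0.66, adjusted p = 0.0274). This list had a median of -0.12 and 13 of 16 negative signs, and neither *Tfam* (-0.35, adjusted p = 0.170) nor the mitochondrial RNA polymerase *Polrmt* (-0.21, adjusted p = 0.613) passed. None of 18 genes for mitochondrial RNA stability (median -0.11) or 13 for coenzyme Q synthesis (median 0.17) passed. Of 76 mitochondrial ribosomal protein genes, 2 were higher, *Mrpl40* (0.52) and *Mrps28* (0.67), and the median was 0.01. Of 14 regulators of respiratory genes 1 was higher, the coactivator *Ppargc1a*, while *Ppargc1b* (0.64, adjusted p = 0.0671), *Nrf1* (-0.03, adjusted p = 0.926), *Gabpa* (-0.02, adjusted p = 0.950) and *Esrra* (0.15, adjusted p = 0.702) did not pass.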

How the data were processed

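Liver RNA-Seq libraries of 8 mice, 4 per diet, were analysed from 1 table of FPKM. The authors trimmed reads with cutadapt 1.9.3, aligned them to mm10 with HISAT2 2.0.4 and deposited FPKM per gene and library, which are scaled to transcript length and library fragments. Cufflinks and Cuffdiff are further tools in those notes of the submitters, and their versions, the annotation release and the strand setting are not given in the sources used here. The paper names a NEBNext directional kit and the labels a TruSeq stranded kit. FPKM are not counts, so no count test was used.

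The deposited FPKM were put on a log2(FPKM + 1) scale. The 11476 genes whose mean reached 0.5 FPKM went into limma 3.58.1 in R 4.3.3 (eBayes with trend, two-sided, Benjamini-Hochberg over all of them), and a change was called at an adjusted p under 0.05. Exact permutation tests used all 70 divisions of the mice (smallest p 0.0286). Nothing in the labels beyond 1 library per mouse describes the replicates, so p-values measure the spread between these mice. The step was tested on simulated data of the HFrD against ND comparison over 11476 genes, with 50 genes shifted by each log2 size. It called 11 of those shifted by 0.5, 43 of those shifted by 1, all 50 shifted by 2 and 18 of 11276 unchanged genes. Gene positions, transcript lengths and GC content (105 of 106 members) are from GENCODE M21 on GRCm38, for the transcript with the longest coding sequence. Where coding sequences were equally long, the longest transcript was taken, which need not be the main one in liver. *Atp5sl* is named *Dmac2* there. Locus entries shared with other genes (32 members) and 100-base windows found in transcripts of other genes mark uncertain values. Promoters are from RefSeq. Python 3.11.15 with pandas 2.3.3, numpy 2.4.6 and matplotlib 3.10.9 was used for tables and plots.

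Members and lists were chosen with earlier results of these data known. The values of 1 nuclear member are not reported here, although it is kept in the counts. Named genes are all mitochondrially encoded members, the nuclear members past the test, the most abundant and the extreme member of each complex, isoform sets, list members past the test and 9 chosen regulators and partners. Others are named where groups did not overlap, chosen after their values were seen. So are *Sdhc*, which completes complex II, and *Uqcrfs1*, a core subunit of complex III. Marker lists were hepatocyte, macrophage, endothelial, stellate, cholangiocyte, lymphocyte, neutrophil, muscle and red blood cell genes. Other settings were equal library medians, equal sums over genes other than *mt-* and *Mup*, quantile normalization, a pseudocount of 0.1, a minimum mean of 1 FPKM or none, no variance trend, a block for the mouse number, and leaving out each library. Fits without HFrD mouse 1 and ND mouse 7 together, and adjusted for transcript length or GC content (loess, span 0.3), were added after seeing the data.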

Additional observations from a re-analysis of the deposited data

Results flagged for a closer look

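Of 96 groups of 4 mice checked for a mouse far from the other 3, 5 had one by Dixon's 95% critical value, and chance gives such a value in about 1 of 20 groups. *Atp5g2* was at 25.1 FPKM in HFrD mouse 5 and at 30.6 to 31.0 FPKM in the other HFrD mice. *Uqcr11* was at 217 FPKM in HFrD mouse 1, below the 249 to 254 FPKM of the other HFrD mice. *mt-Cytb* was at 5213 FPKM in HFrD mouse 7, above the 3376 to 3623 FPKM of the others. *mt-Nd3* was at 9.65 FPKM in ND mouse 3 and at 21.3 to 21.9 FPKM in the other ND mice. *mt-Atp8* was at 5.56e-05 FPKM in HFrD mouse 2 and at 3.87e-09 FPKM or less in the others, all of which are essentially 0.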

How the results depend on the processing

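Most named members kept their direction and their call, or lack of one, in most settings, but not each of the members called. *Sdhd* passed in 1 of the 8 fits without 1 library and in 5 of 11 other settings, and *Atp5e* in 2 of 8 and 5 of 11. *Cox6a1* and *Ndufa5* passed in all of these. Nuclear members higher numbered 13 in the report, 2 without a filter on low values (*Cox6a1* and *Ndufa5*, over 22564 genes tested), 8 after adjustment for transcript length, 8 after adjustment for GC content and 6 to 16 with 1 library left out. Over all genes tested, higher calls numbered 624 in the main fit, 220 without the filter and 340 to 661 with 1 library left out. They numbered 544 after the length adjustment and 478 after the GC adjustment. Nuclear members lower numbered 1, with 0 without the filter, 2 after the length adjustment and 0 to 1 with 1 library left out. Mitochondrially encoded members higher numbered 0, with 1 after quantile normalization (*mt-Co1*), 2 after the GC adjustment (*mt-Co2* and *mt-Co3*) and 0 to 2 with 1 library left out. Quantile normalization gave 18 nuclear members higher, and leaving out HFrD mouse 1 and ND mouse 7 together gave 16, with all 13 kept. The median log2 fold change of nuclear members was 0.08 to 0.14 with 1 library left out and -0.00164 after the length adjustment. That of the mitochondrially encoded members was 0.12 to 0.31 with 1 library left out, 0.11 after the length adjustment and 0.38 after the GC adjustment.

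The sign turned for some members near 0. After the length adjustment *Cox4i1* was at -0.0214, *Cox7a2l* at -0.0693, *Cox7b* at -0.105, *Ndufa3* at -0.258, *Ndufa4* at -0.0141 and *mt-Nd4l* at -0.0376. After the GC adjustment *Ndufa3* was at -0.0617 and *mt-Nd6* at 0.0821. Equal medians gave -0.000772 for *Cox7a2l* and -0.0178 for *Cox7b*, equal sums gave -0.0115 and -0.0289, and quantile normalization gave 0.0202 for *mt-Nd6*. Without HFrD mouse 1 and ND mouse 7, *Cox5a* was at 0.0600, *Sdhb* at 0.0555 and *Cox7b* at -0.0346. With 1 library left out, *Atp5f1* ranged from -0.0710 to 0.0155, *Cox5a* from -0.0777 to 0.0712, *Cox7a2l* from -0.0145 to 0.0639, *Cox7b* from -0.0336 to 0.0788, *Sdhb* from -0.122 to 0.0693, *mt-Atp6* from -0.814 to 0.448, *mt-Nd2* from -0.0360 to 0.307 and *mt-Nd6* from -0.211 to 0.000163. The cause of these changes was not tested.

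The replicate block, with the mouse number shared by ND and HFrD mice 1 and 7, gave 13 nuclear members higher and 1 lower at a consensus correlation of 0.0487. Deviations of same-numbered mice correlated at 0.08 for mouse 1 and -0.01 for mouse 7, and those of differently numbered mice at -0.14 to 0.11. So few pairs cannot show whether same-numbered mice share more than a number. Read depth per gene is unknown, and at this spread the simulated step called 11 of 50 genes with a log2 shift of 0.5, about the size of the rises described.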

Other observations

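Cell type markers outside the lists given in the report overlapped between the diets. The summed level was 24.4 to 41.1 FPKM in ND and 26.5 to 48.3 FPKM in HFrD libraries for 6 cholangiocyte markers, 2.00 to 3.36 and 1.44 to 2.41 FPKM for 8 lymphocyte markers, 2.96 to 11.8 and 4.22 to 11.3 FPKM for 6 neutrophil markers and 178 to 269 and 149 to 399 FPKM for 6 red blood cell markers. Of the red blood cell list, *Alas2*, an enzyme of haem synthesis, was lower, and *Ttr* of the hepatocyte list was higher.

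Some nuclear members also have near-identical copies. *Atp5l*, subunit g of ATP synthase, shares 69.0% of its 100-base windows with transcripts of other genes, and its copy *Gm10221* has its own value of 40.0 to 52.8 FPKM in ND and 43.4 to 56.1 FPKM in HFrD mice. Of the 13 nuclear members that were higher, 4 shared any such window and 0 shared more than 50%.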
